A study of Mus musculus with 8 samples.

Results

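The genes described are 67 protein-coding potassium channel genes on the mouse autosomes, chosen by symbol as those that start with Kcna, Kcnb, Kcnc, Kcnd, Kcnh, Kcnj, Kcnk, Kcnma, Kcnn, Kcnq or Kcnt, without Kcnq1. They are 67 of 20665 autosomal protein-coding genes. The rule uses symbols and no measured values, though the symbols were picked with earlier results of these data known. CpG methylation was read by reduced representation bisulfite sequencing, which sequences CpG-rich restriction fragments after bisulfite treatment and gives the percent of reads that kept a methylated cytosine. The DNA came from the dDG DGC layer, taken to mean granule cells of the dorsal dentate gyrus, of male C57 BL/6 mice with no further genetic change named in the labels. One group is 4 mice after cocaine self-administration and the other is 4 saline mice, with 1 library per mouse; the sources used here do not give dose, duration, age or the time of dissection. Each gene was read over its span and 5 kb on either side, at cytosines with at least 10 reads in all 8 libraries. This gave 7106 cytosines at 5852 CpGs, out of 1510385 in the whole table, and every 1 of the 67 genes had a measured cytosine. No cytosine was counted for 2 potassium channel genes. A dissected layer holds several cell types, so a lower level in all cells and a change in the cell mix cannot be told apart.

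Potassium channels let potassium leave or enter a cell down its gradient and so set the resting potential, end action potentials and limit repetitive firing. Voltage-gated members open on depolarisation, inward rectifiers pass current best near rest, tandem pore domain members carry background leak, and calcium- or sodium-activated members respond to ions that enter during firing. Dentate granule cells are known for sparse firing and a strongly negative resting potential, to which these conductances contribute. CpG-dense promoters are usually unmethylated in all tissues, whether or not the gene is transcribed, while gene bodies are mostly methylated.

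Libraries held 87964952 to 141775386 reads summed over cytosines, and median coverage at the potassium channel cytosines lay between 44 and 79 reads. Saline 1 stood apart: where the level was intermediate and coverage 30 to 40 reads, it gave exactly 0% or 100% at 14.3% of cytosines, and the remaining 7 libraries at 0.368% to 2.87%. Cocaine 3 had the lowest mean level over the potassium channel cytosines, 26.6%, against 27.4% to 28.5% in the other 7 libraries. It was also the lowest over all common cytosines of the table, at 36.5% against 37.1% to 38.3%. At the starts of granule cell markers the DNA was unmethylated, with 0.0593% ± 0.0778 at Prox1 and 0.355% ± 0.203 at C1ql2 in cocaine mice (SD, n = 4). The start of the myelin gene Mag was at 64.7% ± 9.60 in the same mice, whereas the oligodendrocyte gene Olig2 was at 1.76% ± 0.776. Among astrocyte genes, the starts of Gfap and Aldh1l1 were at 45.4% ± 11.3 and 34.4% ± 2.67 in these mice. That of Slc1a3 was at 0.474% ± 0.224, and that of Gja1 was lower still. The starts of the endothelial genes Flt1 and Cldn5 were at 1.82% ± 0.488 and 1.97% ± 1.34. A low level at a start thus does not identify the cell type.

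Promoter sequence shows the range of starting points among these genes. A RefSeq promoter table (build GRCm38.p6, whose primary chromosomes have mm10 coordinates; 250 bases before to 50 after the start) held 68 promoters of 51 of the 67 genes. Of these, 30 had at least 3 measured CpGs, and 27 of the 30 had a mean level under 5%. The 6 sequences below were picked after their values were seen, to set the unmethylated promoter with the most measured CpGs beside the 3 at 5% or more and beside the pair of Kcnk10. They are printed 5′ to 3′ on the gene's own strand, with each CG in capitals. They are Kcna3 at chr3:107035912-107036211 (plus strand), Kcnk18 at chr19:59219398-59219697 (plus), Kcnn4 at chr7:24370013-24370312 (plus), Kcnj13 at chr1:87394680-87394979 (minus), and Kcnk10 at an inner start, chr12:98575078-98575377 (minus), and at the outer start, chr12:98578164-98578463 (minus).
Kcna3: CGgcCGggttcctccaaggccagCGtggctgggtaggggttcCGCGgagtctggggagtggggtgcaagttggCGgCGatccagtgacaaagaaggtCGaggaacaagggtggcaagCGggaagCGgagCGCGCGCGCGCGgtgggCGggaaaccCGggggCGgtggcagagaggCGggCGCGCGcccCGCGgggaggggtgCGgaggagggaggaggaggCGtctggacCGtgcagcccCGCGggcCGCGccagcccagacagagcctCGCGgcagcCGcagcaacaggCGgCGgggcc
Kcnk18: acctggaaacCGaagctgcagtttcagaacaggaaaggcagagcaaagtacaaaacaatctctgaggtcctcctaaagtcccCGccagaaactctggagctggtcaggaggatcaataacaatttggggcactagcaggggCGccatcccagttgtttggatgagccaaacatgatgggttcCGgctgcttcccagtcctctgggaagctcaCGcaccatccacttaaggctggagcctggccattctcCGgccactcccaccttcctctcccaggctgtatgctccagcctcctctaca
Kcnn4: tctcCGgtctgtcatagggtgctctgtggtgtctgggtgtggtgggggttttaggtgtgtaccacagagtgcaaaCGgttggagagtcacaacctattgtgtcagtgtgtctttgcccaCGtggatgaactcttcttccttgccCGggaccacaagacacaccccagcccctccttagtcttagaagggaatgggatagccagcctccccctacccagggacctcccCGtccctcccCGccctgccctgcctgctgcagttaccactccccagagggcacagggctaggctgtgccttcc
Kcnj13: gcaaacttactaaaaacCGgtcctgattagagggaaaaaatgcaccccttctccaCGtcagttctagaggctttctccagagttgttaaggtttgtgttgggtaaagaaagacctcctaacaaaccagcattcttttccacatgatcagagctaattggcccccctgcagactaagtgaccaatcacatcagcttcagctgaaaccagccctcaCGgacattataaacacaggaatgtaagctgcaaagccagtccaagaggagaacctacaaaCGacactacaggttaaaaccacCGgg
Kcnk10 inner: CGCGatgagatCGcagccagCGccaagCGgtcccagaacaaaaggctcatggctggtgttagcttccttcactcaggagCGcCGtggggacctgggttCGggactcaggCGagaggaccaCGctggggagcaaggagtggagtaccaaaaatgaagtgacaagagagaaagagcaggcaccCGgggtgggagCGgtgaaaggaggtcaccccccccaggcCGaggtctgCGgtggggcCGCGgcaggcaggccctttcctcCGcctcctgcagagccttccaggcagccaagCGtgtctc
Kcnk10 outer: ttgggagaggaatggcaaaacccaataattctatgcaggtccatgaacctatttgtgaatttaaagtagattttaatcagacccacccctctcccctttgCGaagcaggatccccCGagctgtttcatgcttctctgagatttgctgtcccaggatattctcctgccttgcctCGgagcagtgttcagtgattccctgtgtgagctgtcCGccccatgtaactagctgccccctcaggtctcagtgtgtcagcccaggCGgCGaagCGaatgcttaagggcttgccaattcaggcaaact

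Kcna3, a Shaker-type voltage-gated channel, had 37 CpGs in its promoter and all 37 were measured. Their mean level was 0.171% ± 0.169 in cocaine and 0.672% ± 0.190 in saline mice (SD, n = 4). Kcnk18, a tandem pore channel known from sensory neurons, had 6 CpGs, of which 5 were measured, at 80.9% ± 3.87 and 79.6% ± 5.88. It was the only 1 of the 30 promoters above 50%. Kcnn4, the intermediate-conductance calcium-activated channel known from blood cells and epithelia, had 4 of 6 CpGs measured, at 42.3% ± 5.60 and 39.97% ± 6.43. Kcnj13, an inward rectifier known from epithelia, had all 5 CpGs measured, at 27.2% ± 4.40 and 25.3% ± 2.27. In each of these 3 promoters the cocaine and saline means differed by less than the SD of a group.

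Kcnk10, the stretch- and lipid-sensitive leak channel also called TREK-2, has listed starts of both kinds. The inner promoter, with 18 CpGs of which 8 were measured, was at 0.156% ± 0.185 in cocaine and 0.246% ± 0.176 in saline mice. The outer promoter holds 7 CpGs, none of them measured in the printed window. The 7 cytosines measured within 1 kb of that outer start were at 84.3% ± 10.2 and 85.2% ± 7.49. In both groups the inner promoter was thus unmethylated and the surroundings of the outer start were methylated. Over all 68 promoters the median number of CpGs was 10, against 13 in 21263 promoters of protein-coding genes.

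Away from the listed starts the levels turned over. In 41 genes with at least 5 cytosines within 1 kb of a listed start, the median of the gene levels there was 1.15%. In 46 genes with at least 5 cytosines more than 2 kb from every listed start, the median was 68.9%. This distant set also holds cytosines around outer starts that are not listed. At Kcnj12 all 91 cytosines were counted as distant, though 64 lie within 1 kb of its outer start, at 3.17% over all mice. Both places were measured in 37 genes, and in 36 of them the distant level was the higher. The exception was Kcnh2, the ether-a-go-go-related channel of cardiac and neuronal repolarisation. Its 6 cytosines near a listed start inside the gene were at 55.6% over all mice. Its 110 cytosines more than 2 kb from every listed start were at 43.7%. The 12 cytosines around its outermost start were unmethylated, at 2.10% ± 1.07 in cocaine and 1.56% ± 0.706 in saline mice. That start is not among the listed ones, so the 12 are counted in the 110. The exception thus sets an inner start against a set that holds the outer start. Among all 36 start windows of potassium channel genes, 28 (77.8%) were under 5%, against 82.9% of 9876 start windows of autosomal protein-coding genes.

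From 1 to 2 kb downstream of the start the channel genes stayed low where other genes had already risen. There the mean over 22 channel genes, averaged within each gene first, was 15.0% ± 1.26 in cocaine and 15.8% ± 0.869 in saline mice. It rested on 342 cytosines, with a cytosine counted for each listed start it lies near. The mean over 3766 protein-coding genes at that distance, on 50159 cytosines counted likewise, was 37.4% ± 1.02 and 38.4% ± 0.455. These SDs are between mice and do not give the spread between genes. From 2 to 5 kb the channel genes reached 54.7% ± 1.88 and 57.8% ± 1.58. The cytosines of 1 gene share their position, so these bins describe a few genes each, and no test was made of them.

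**Figure D1:**
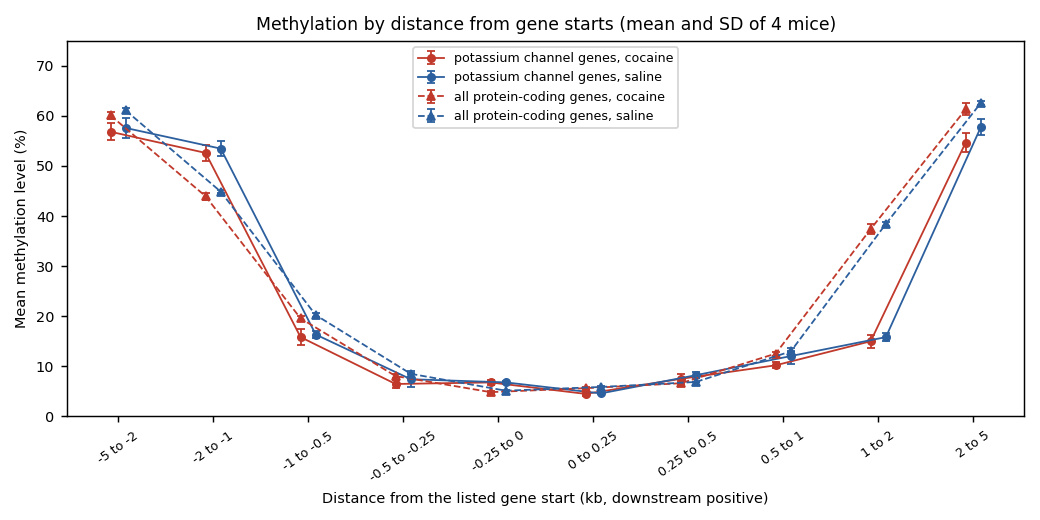
Mean methylation level (%) by distance from the listed gene start in kb, averaged within each gene and then over genes. Potassium channel genes have solid lines and circles, and all protein-coding genes dashed lines and triangles, in cocaine (red) and saline (blue) mice. Points are the mean and bars the SD of 4 mice. Both sets are near 5% around the start, and from 1 to 2 kb downstream the channel genes are at about 15.0% in cocaine mice against 37.4% for all genes.

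The levels of whole genes spanned nearly the full scale. The lowest was Kcna1, a low-threshold axonal channel, at 0.720% ± 0.490 in cocaine and 0.321% ± 0.176 in saline mice over 151 cytosines. Kcna3 was at 2.06% ± 0.685 and Kcnc4 at 4.77% ± 0.485 in cocaine mice. The highest were Kcna10, at 92.3% ± 3.18 and 93.2% ± 2.55, and Kcnj1, an inward rectifier known from kidney, at 91.0% ± 2.99 and 93.4% ± 1.33. A gene's mean follows which of its cytosines were read: Kcna10 had 18 and Kcnj1 had 16, and neither had a measured CpG in its listed promoter.

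**Figure D2:**
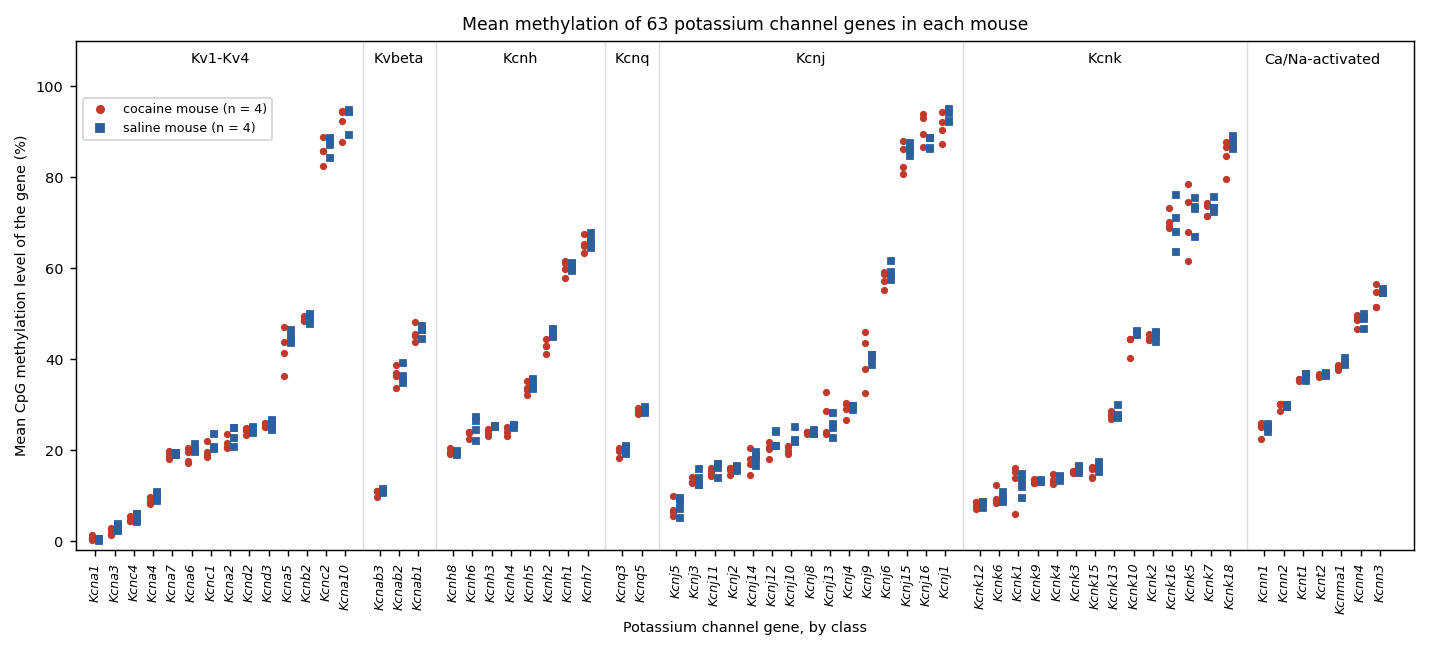
Mean CpG methylation level (%) of 63 potassium channel genes, by class (Kv1-Kv4 for Kcna to Kcnd pore subunits, Kvbeta for Kcnab) and ordered by level, with 1 point per mouse (cocaine red circles, saline blue squares, 4 each). Genes differ from under 1% (Kcna1) to over 90% (Kcna10, Kcnj1), and the mice of both groups lie close together within most genes.

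A nominal p is a p before adjustment for the number of features tested. The comparison of cocaine with saline mice was made first on regions, which are runs of at least 3 CpGs with gaps of at most 100 bp. The channel genes held 517 regions, of which 151 (29.2%) had a pooled level under 5%, against 21.8% of all 125782 regions. Tests were made on the 353 regions, in 63 genes, with a pooled level from 5% to 95%; their median length was 103 bp, with a median of 4 CpGs and 47.1 reads per cytosine and sample. Methylated and unmethylated reads were compared between groups by a quasi-binomial test that includes the spread between mice, fitted on all 92426 such regions of the table. No region of a potassium channel gene passed an adjusted p under 0.05, and the smallest adjusted p was 0.875 (limma-moderated dispersion, Benjamini-Hochberg over all regions). Over all regions 0.0% were called. The count was 0 as well with limma on logit levels of the same regions.

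At a nominal p under 0.05 there were 18 of 353 channel regions with the quasi-binomial test (5.10%, against 5.66% of all regions). With limma on logit levels there were 15 (4.25%, against 5.14% of all regions). The 18 were 16 with the lower mean in cocaine mice (4.53%, against 4.58% of all tested regions) and 2 with the higher mean (0.567%, against 1.08%). The cocaine mean was the lower in 221 regions (62.6%), beside 61.8% of all regions, and the median difference was -1.01 percentage points beside -1.06 points. In 7 channel regions all 4 cocaine mice lay below all 4 saline mice (1.98%, against 2.6% of all regions), and in 3 they lay above (0.850%, against 0.699%).

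Cocaine 3 carried much of the direction. Without it, 16 regions were at a nominal p under 0.05 (4.53%, against 4.98% of all regions). Of these, 9 had the lower and 7 the higher mean in cocaine mice. Without cocaine 3 the cocaine mean was the lower in 56.9% of channel regions, beside 55.9% of all regions. Without saline 4 there were 17 regions (4.82%, against 5.52% of all regions), 12 lower and 5 higher. Leaving out saline 1 gave 22 regions (6.23%, against 6.13% of all regions), of which 21 had the lower mean in cocaine mice.

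**Figure D3:**
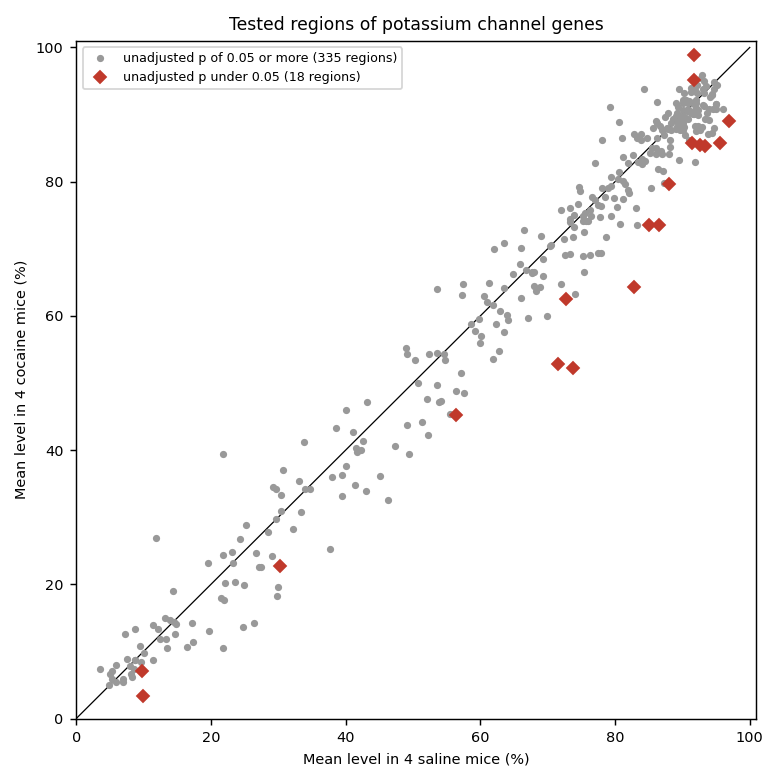
Mean methylation level (%) of the 353 tested regions in 4 cocaine mice (vertical axis) against 4 saline mice (horizontal axis); the line marks equal levels, and red diamonds are the 18 regions at a nominal p under 0.05. Of the 18 diamonds, 16 lie below the line and 2 above it.

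Voltage-gated pore subunits of the Kcna, Kcnb, Kcnc and Kcnd families had 66 tested regions. Of these, 38 had the lower mean in cocaine mice (57.6%, beside 61.8% of all tested regions). A nominal p under 0.05 was reached by 4 of the 38 (6.06% of the 66, against 4.58% of all tested regions). The smallest p was at Kcnb2, a delayed rectifier, at chr1:15321934-15322095 inside the gene. Its level was 91.1%, 84.7%, 82.0% and 84.0% in cocaine mice 1 to 4 and 94.8%, 91.8%, 89.9% and 93.6% in saline mice 1 to 4. The groups overlapped at cocaine 1, and all 7 cytosines had their lower mean in the cocaine group (difference -7.08 points, adjusted p = 0.875). At Kcna2, a Shaker-type channel of axons, a region 3402 bp after the listed start, chr3:107104945-107104994, read 69.5%, 80.3%, 83.5% and 60.7% in cocaine and 85.1%, 94.7%, 87.7% and 78.6% in saline mice (BH-adjusted p = 0.875). Its 4 cytosines did not all go one way. At the CpG read on both strands, the plus strand was at 78.3% ± 8.64 in cocaine and 93.5% ± 7.54 in saline mice, and the minus strand at 87.2% ± 16.0 and 71.9% ± 18.3.

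Over whole genes, 14 of the 16 measured pore subunit genes of these families had the lower mean in cocaine mice (87.5%, beside 71.9% of all genes). At a nominal p under 0.05 was 1 of them (6.25% of the 16, against 7.36% of all genes). The A-type channel genes Kcnd2 and Kcnd3 differed by -0.133 and 0.00924 points, and Kcnc1 by -1.45 points. Kcna4 was at 8.85% ± 0.626 and 9.86% ± 0.946, Kcna2 at 21.6% ± 1.35 and 23.3% ± 2.08, and Kcna1 was higher in cocaine by 0.399 points, from overlapping groups.

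Kcnab2 encodes a cytoplasmic beta subunit that binds Kcna channels and shapes their trafficking and inactivation, and it held the smallest p of all the channel regions. The region, chr4:152436951-152436994 inside the gene and 11883 bp from the nearest listed start, has 3 cytosines on the minus strand. Its level was 79.5%, 57.4%, 52.9% and 67.5% in cocaine mice and 89.9%, 79.7%, 80.6% and 80.7% in saline mice. The groups did not overlap, but cocaine 1 lay within 1 point of saline 2. The means were 64.3% ± 11.8 and 82.7% ± 4.82 (difference -18.4 points, adjusted p = 0.875). Summed over the 3 cytosines there were 78 to 203 reads per mouse, where a read covering several cytosines counts at each. All 3 cytosines had their lower mean in the cocaine group, by 10.7 to 25.8 points, and at none of them were the groups apart. Another region of 3 cytosines, after the end of Kcnab2 and inside Chd5, had the opposite direction, at 91.1% ± 5.97 in cocaine and 79.3% ± 11.3 in saline mice (BH-adjusted p = 0.881). Without saline 1 that difference of 11.8 points was 6.73 points. The mean over the whole Kcnab2 gene was 36.4% ± 2.09 and 36.5% ± 1.93. None of the 3 Kcnab genes was at a nominal p under 0.05 (against 7.78% of all genes).

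Ether-a-go-go family genes (Kcnh) had 52 tested regions, 33 with the lower mean in cocaine mice (63.5%, beside 61.8% of all tested regions). At a nominal p under 0.05 were 4 of the 33 (7.69% of the 52, against 4.58% of all tested regions). Kcnh2 had the smallest p among the gene means of the channel genes. Its 116 cytosines averaged 42.9%, 44.3%, 41.1% and 42.9% in cocaine mice and 46.7%, 45.4%, 44.9% and 46.3% in saline mice. The groups did not overlap, and the gap between cocaine 2 and saline 3 was under 1 point (difference -3.01 points, adjusted p = 0.626). Kcnh3, a channel known to restrain excitability in hippocampal pyramidal cells, averaged 23.9% ± 0.621 and 25.2% ± 0.153, again without overlap (adjusted p = 0.641). The named Kcnh3 region lies 4732 bp outside the gene, in Mcrs1, at chr15:99247550-99247660. It read 80.5%, 93.3%, 82.5% and 100% in cocaine and 95.4%, 97.5%, 97.0% and 98.0% in saline mice, so that cocaine 4 was the highest of the 8 (BH-adjusted p = 0.875). The difference of -7.90 points was -5.06 points without cocaine 1. A Kcnh1 region of 3 cytosines, chr1:192241610-192241692, was at 88.8% ± 10.5 in cocaine and 80.6% ± 6.09 in saline mice (BH-adjusted p = 0.895). Its difference of 8.27 points was 5.34 without cocaine 1, 5.40 without cocaine 2 and 12.5 without cocaine 3. Kcnh7 differed by -0.646 points over the whole gene and Kcnh8 by 0.234 points.

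Kcnq genes encode the subunits of the M-current, which muscarinic receptors suppress. None of their 21 tested regions was at a nominal p under 0.05 (against 5.66% of all tested regions). Kcnq3 as a whole gene was at 19.7% ± 0.964 with cocaine and 20.1% ± 0.763 with saline. The 91 cytosines around the upper end of Kcnq3 were at 0.392% ± 0.368 and 0.379% ± 0.258.

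Inward rectifier genes (Kcnj) had 65 tested regions, 45 with the lower mean in cocaine mice (69.2%, beside 61.8% of all tested regions). In each direction 1 was at a nominal p under 0.05 (1.54%). Over all tested regions 4.58% were so with the lower and 1.08% with the higher mean. Kcnj11 encodes the pore of the ATP-sensitive channel that links metabolism to excitability, and its region at chr7:46099591-46099618 also lies within 5 kb of Abcc8, the gene of the channel's sulfonylurea receptor. The level was 100%, 98.6%, 97.0% and 100% in cocaine mice and 94.1%, 89.8%, 87.5% and 95.5% in saline mice. All 4 cocaine mice were above all 4 saline mice (98.9% ± 1.43 against 91.7% ± 3.70, adjusted p = 0.875). Summed over the 4 cytosines there were 52 to 145 reads per mouse, and 13 to 37 at a single cytosine. The 4 cytosines lie on the same strand within 28 bp and can share reads, so they are not independent. Only 1 of the 4 kept the groups apart. Around the upper end of the span, 1348 bp from the middle of this region, 33 cytosines of Kcnj11 were at 2.85% ± 1.20 and 4.30% ± 0.813. The whole-gene difference was -0.902 points.

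Kcnj10, the glial inward rectifier that takes up potassium around synapses, had the second smallest p among the gene means of the channel genes. Its 126 cytosines averaged 19.2%, 20.8%, 19.8% and 20.8% in cocaine mice and 21.8%, 22.2%, 22.0% and 25.1% in saline mice. The groups did not overlap, and saline 4 stood above the other saline mice (difference -2.65 points, adjusted p = 0.626). None of its 7 tested regions was at a nominal p under 0.05. The mean over the 5 astrocyte markers Aqp4, Gfap, Aldh1l1, Slc1a3 and Gja1 lay between 30.5% and 32.9% in the cocaine group and between 32.5% and 33.7% in the saline group, and its part in the Kcnj10 value was not tested. Among the G protein-gated channel genes, Kcnj3 differed by -0.393 points and Kcnj6 by -1.54 points. At Kcnj4, a strong rectifier of forebrain neurons, the region chr15:79501162-79501240 read 51.0%, 27.3%, 14.8% and 64.4% in cocaine and 13.0%, 21.5%, 31.3% and 21.5% in saline mice. The cocaine mice spread over most of the saline range and above it (39.4% ± 22.5 against 21.8% ± 7.48, adjusted p = 0.881). The difference of 17.6 points was 9.20 points without cocaine 4.

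Tandem pore genes (Kcnk) had 62 tested regions, of which 3 with the lower and 1 with the higher mean in cocaine mice were at a nominal p under 0.05. These shares are 4.84% and 1.61%, against 4.58% and 1.08% of all tested regions. Kcnk15, a TASK-family gene whose product gives little or no current when expressed alone, held the named region with the most CpGs, 27 in 458 bp at chr2:163858201-163858658, near the end of the gene. Pooled over reads, the level was 22.8%, 28.0%, 19.9% and 20.02% in cocaine mice and 31.4%, 29.6%, 31.8% and 28.4% in saline mice. The groups did not overlap (22.7% ± 3.77 against 30.3% ± 1.56, difference -7.60 points, adjusted p = 0.875). That difference depended on how reads were spread over the region. With each cytosine weighted equally the levels were 25.8% ± 2.24 and 26.9% ± 1.66, a difference of -1.15 points (adjusted p = 0.980 in limma), and 17 of the 30 cytosines were lower and 12 higher in the cocaine group.

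Methylation fell along the Kcnk15 region from 77.6% ± 4.04 in cocaine and 83.5% ± 8.94 in saline mice at its first CpG to under 5% at the 9 cytosines more than 300 bp in. Those 9 cytosines were at 1.79% ± 1.36 and 2.49% ± 1.83. They held 38.7% ± 5.02 of the region's reads in cocaine mice and 23.6% ± 8.96 in saline mice, with a low of 12.2% in saline 1 and a high of 43.9% in cocaine 4. The other 21 cytosines, pooled over reads, were at 35.7% ± 3.71 and 38.9% ± 2.97, and these groups overlapped. The window of 1 kb around that end of the gene, which holds the same cytosines, gave 23.7% ± 3.16 and 30.2% ± 1.62 (BH-adjusted p = 0.746). Around the start, 68 cytosines of Kcnk15 were at 0.766% ± 0.376 and 2.14% ± 0.746; these groups did not overlap, at levels below those tested.

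**Figure D4:**
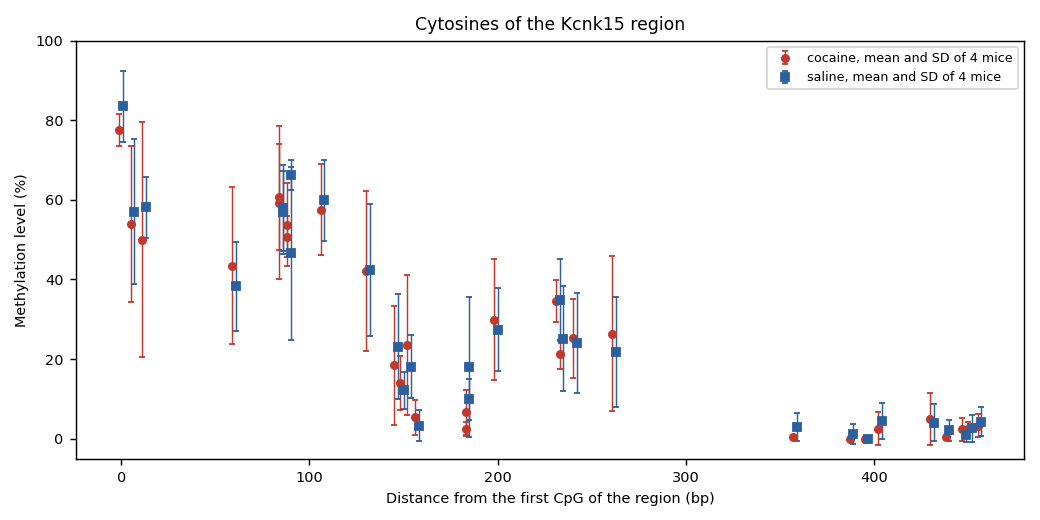
Methylation level (%) of the 30 cytosines of the Kcnk15 region against distance in bp from its first CpG, in cocaine (red circles) and saline (blue squares) mice; points are the mean and bars the SD of 4 mice. The level falls from about 80% to under 5% along the region, and the bars of the groups overlap at nearly all positions.

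Kcnk10 had a region of 7 cytosines deep in the gene, chr12:98440538-98440751, at 83.5%, 85.5%, 82.2% and 90.1% in cocaine mice and 100%, 91.0%, 92.2% and 90.4% in saline mice. The groups did not overlap, cocaine 4 and saline 4 lay within 1 point, and saline 1 was at 100% on all 7 cytosines. The difference was -8.09 points with saline 1 and -5.89 points without it (BH-adjusted p = 0.875 and 0.804). In a second Kcnk10 region, chr12:98523801-98523853, also inside Gm40893, the cocaine mean was the higher, at 70.0% ± 6.08 against 62.1% ± 14.3. That difference of 7.95 points was 2.87 points without saline 1 (adjusted p = 0.945). It was 4.94 points without cocaine 3 and 4.93 without saline 3, but 11.9 without saline 2 and 12.1 without saline 4. Over the whole gene, Kcnk10 averaged 43.4% ± 2.15 and 45.8% ± 0.371, without overlap (adjusted p = 0.641).

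Kcnk13, a leak channel known from microglia, had 3 cytosines far from its start, chr12:100003406-100003485, at 2.38%, 2.52%, 3.57% and 4.84% in cocaine and 7.32%, 3.14%, 12.4% and 16.5% in saline mice. Saline 2 lay inside the cocaine range (BH-adjusted p = 0.875). The difference of -6.51 points was -4.31 points without saline 4. Kcnk2, the TREK-1 channel, had the second region with the higher mean in cocaine mice at a nominal p under 0.05, at chr1:189386697-189386794. It read 98.2%, 94.99%, 93.1% and 94.0% in cocaine and 91.5%, 93.0%, 89.0% and 93.2% in saline mice, so that cocaine 3 and saline 4 overlapped (BH-adjusted p = 0.875). Over whole genes, Kcnk1 was at 12.8% ± 4.65 and 12.4% ± 2.25, Kcnk2 at 44.7% ± 0.599 and 45.1% ± 0.964, and the acid-sensitive Kcnk9 at 13.1% ± 0.465 and 13.2% ± 0.256.

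Calcium- and sodium-activated genes had 62 tested regions, 41 with the lower mean in the cocaine group (66.1%, beside 61.8% of all tested regions). At a nominal p under 0.05 were 2 of the 41 (3.23% of the 62, against 4.58% of all tested regions). Kcnt1, the sodium-activated channel of the slow afterhyperpolarisation, had a region of 11 CpGs at chr2:25906609-25906842. It read 84.8%, 82.9%, 85.8% and 89.5% in cocaine and 95.1%, 90.1%, 89.5% and 91.0% in saline mice, and cocaine 4 and saline 3 overlapped (difference -5.65 points, adjusted p = 0.875). A second Kcnt1 region, chr2:25901306-25901424, read 92.4%, 90.5%, 99.2% and 93.1% in cocaine and 87.9%, 87.6%, 92.4% and 89.9% in saline mice. Groups overlapped, with the higher mean under cocaine (93.8% ± 3.75 against 89.4% ± 2.24, adjusted p = 0.897), and the difference of 4.35 points was 2.55 points without cocaine 3. Kcnn3, a small-conductance channel of the afterhyperpolarisation, was at 93.8% ± 7.05 and 84.3% ± 7.12 in the region chr3:89608415-89608477, a difference of 9.41 points that was 5.95 points without saline 1. Over whole genes, Kcnma1, the large-conductance channel, was at 38.2% ± 0.492 and 39.3% ± 0.676, Kcnn2 at 29.8% ± 0.733 and 29.7% ± 0.305, Kcnn3 at 53.6% ± 2.50 and 54.8% ± 0.455, and Kcnt1 at 35.4% ± 0.243 and 36.2% ± 0.767. None of the 7 genes of this class was at a nominal p under 0.05 (against 7.78% of all genes).

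**Figure D5:**
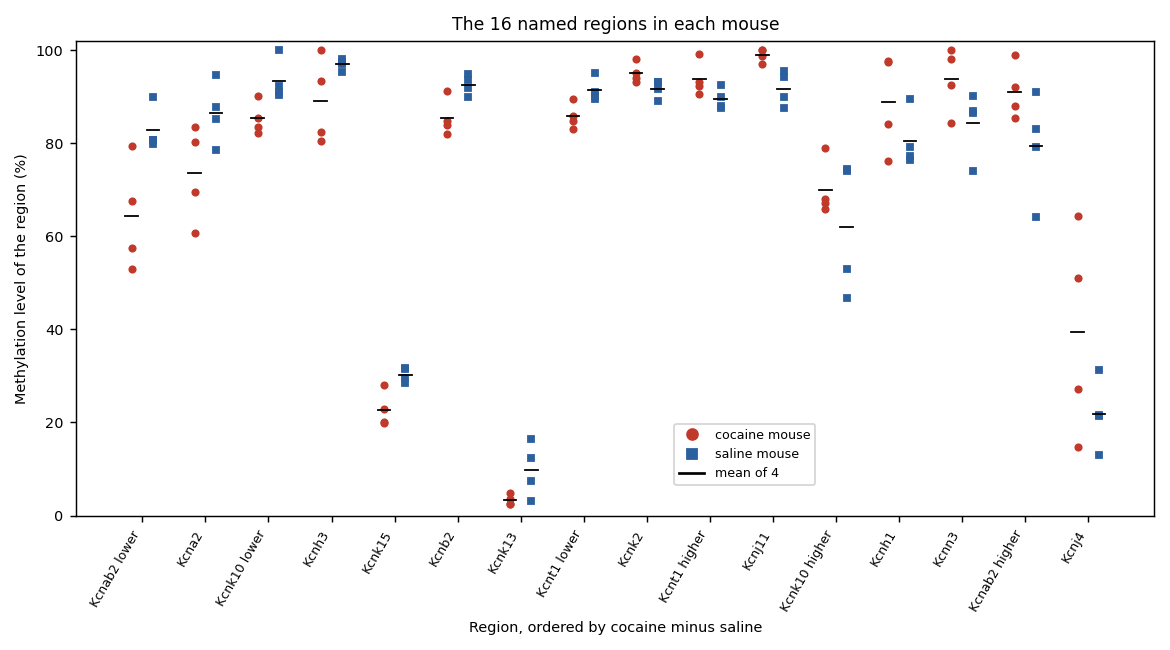
Methylation level (%) of the 16 named regions in each of 4 cocaine mice (red circles) and 4 saline mice (blue squares), ordered by the cocaine minus saline difference; black bars are group means. The mice of a group often differ as much as the groups do, and every adjusted p was at least 0.875.

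Of those 18 regions with the smallest p, 10 are described above by the rule for named regions. The other 8 all had the lower mean in cocaine mice and were named after their values were seen: they include regions in or near Kcnh4, Kcnab2, Kcnh3, Kcnh2, Kcnj9, Kcnn3 and Kcnc1, with differences from -21.6 points (Kcnh4, 52.2% ± 9.21 against 73.8% ± 12.04) to -2.69 points (Kcnc1). The Kcnc1 region has the most CpGs of them, 45 with 60 cytosines, 1709 bp from the listed start, at 7.12% ± 1.52 and 9.81% ± 0.919. The Kcnh2 region lies 1433 bp before the outermost start, at 45.2% ± 4.17 and 56.4% ± 4.49, and its groups did not overlap.

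Gene means gave each cytosine the same weight and were compared by limma over the 15900 autosomal protein-coding genes with at least 10 cytosines, 65 of them potassium channel genes. None of the 65 was called, nor any other gene (0.0%), and the smallest adjusted p was 0.626. At a nominal p under 0.05 there were 6 channel genes, among them Kcnh2, Kcnj10, Kcnh3, Kcnk10 and Kcnj12, all with the lower mean in cocaine mice. They are 9.23% of the 65, against 7.36% of all genes; none had the higher mean, against 0.415% of all genes. With limma on logit levels the count was 6 as well (9.23%, against 7.93% of all genes). In 5 of the 65 the cocaine mice lay below all saline mice (7.69%, against 4.77% of all genes), and in none above (against 0.308%). Without cocaine 3 the 6 genes became 3 (4.62%, against 5.64% of all genes), and without saline 4 also 3 (against 6.47% of all genes). Without cocaine 4 they became 9 (13.8%, against 11.4% of all genes).

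The cocaine mean was the lower in 56 of the 65 channel genes (86.2%), beside 71.9% of all 15900 genes. This share moved with cocaine 3: without it, 42 channel genes (64.6%) had the lower cocaine mean, beside 63.5% of all genes. Without saline 1 the count was 55 (84.6%), beside 73.6%. The mean over the 65 genes was 32.6%, 33.2%, 32.0% and 33.5% in cocaine mice and 33.3%, 33.5%, 33.8% and 33.8% in saline mice, so cocaine 4 overlapped the saline mice. The difference of -0.784 points stood beside -0.605 points over all genes. Without cocaine 3 it was -0.504 points, beside -0.372 points. More than 2 kb from every listed start, 37 of 46 channel genes (80.4%) had the lower cocaine mean, and 28 of 46 (60.9%) without cocaine 3. The share of all genes at that distance was not computed. This set also includes cytosines around outer starts that are not listed, as at Kcnj12. The means of all 6 marker lists were also lower in cocaine mice, from -0.344 points for other neurons to -1.58 points for astrocytes, and the 4 endothelial markers at 44.5% to 45.3% did not overlap the saline 45.7% to 46.6%. Their part in the channel values was not tested.

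Windows of 1 kb on either side of a gene's ends were tested where the pooled level was from 5% to 95%, which left 22 of 65 windows of channel genes. None passed an adjusted p under 0.05 (0.0% of all 7336 windows did). At a nominal p under 0.05 there was 1, the Kcnk15 end described above (4.55% of the 22, against 5.11% of all windows with the lower cocaine mean); none had the higher mean, against 0.668% of all windows. The count was 1 with limma on logit levels too (4.55%, against 5.66% of all windows). At the starts, Kcnk18 was at 82.8% ± 3.22 and 86.3% ± 1.55 (adjusted p = 0.872), and Kcnj4 at 7.64% ± 2.71 and 10.6% ± 3.35 (adjusted p = 0.872). The start of Kcna7 was at 9.32% ± 2.20 and 7.88% ± 1.58 (adjusted p = 0.923), and that of Kcnab1 at 6.65% ± 2.67 and 8.14% ± 5.33 (adjusted p = 0.960). The upper end of Kcnn2, whose direction on the gene is not known here, was at 93.4% ± 1.22 and 91.0% ± 3.77. At the far end of Kcnk13 the level was 92.8% ± 0.841 and 89.5% ± 5.04 (adjusted p = 0.925).

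A list of 36 further genes of potassium channel function held silent and auxiliary subunits (Kcng, Kcns, Kcnv, Kcnf1, Kcne, Kcnip, Kcnmb, Dpp6, Dpp10, Lrrc). It also held Kcnu1, Lgi1, sulfonylurea receptors and the related Hcn channels. These 36 genes were read in the same way. Of their 195 tested regions, 12 with the lower mean in cocaine mice (6.15%, against 4.58% of all tested regions) and 1 with the higher mean (0.513%, against 1.08%) were at a nominal p under 0.05, and the smallest adjusted p was 0.875. By gene means, 2 of 34 were, both with the lower mean in cocaine mice (5.88%, against 7.36% of all genes), and 23 of the 34 (67.6%) had the lower mean, beside 71.9% of all genes. None of their 13 tested windows at gene ends was. Regions near genes of both lists were counted in both. The 1 region with the higher mean is the Kcnj11 region described above, which lies within 5 kb of Abcc8.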

How the data were processed

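Per the submitters' processing notes, the tools were bcl2fastq and Bismark 22.1 and the build mm10; the sources used here do not state trimming or duplicate removal. Each deposited file lists cytosines of CpGs by strand, with a methylation level that the header names a percent and whose deposited values are a fraction from 0 to 1. Coverage was deposited as read counts, at least 10 per cytosine. Level times coverage gave a whole number at 100% of cytosines, within 5e-07 times the coverage, so methylated reads were recovered. Reads carry no molecular identifiers in the labels, so copies cannot be removed and counting error understates the error. Titles gave the groups and replicate numbers.

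Gene spans came from a RefSeq table of assembly GRCm38.p6; exons and introns were not used here. Regions and windows at gene ends (at least 5 cytosines) were tested by quasi-binomial regression with limma's squeezeVar (version 3.58.1, R 4.3.3; trend on log coverage, floor of 1; prior degrees of freedom 11.4 and 9.67) and an F test. Gene means were tested by limma with a trend. P-values were adjusted by Benjamini-Hochberg (BH) over all features. Regions were called at 10 points, windows at 5 points.

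Members, lists and tests were chosen with earlier results of these data known. Named regions are the smallest p per class and the 8 smallest per direction, 1 per gene; named gene means are the 3 smallest p per direction and a list of 23 genes; named windows are the 5 smallest p per direction. Some items these rules name are not reported here. Alternatives changed the coverage minimum (20 reads), gap (50 bp), level filter, dispersion, test, gene span, weighting and replicate block, and left out each mouse. Weighting the cytosines of a region equally was added after the data were seen.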

Additional observations from a re-analysis of the deposited data

Results flagged for a closer look

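In groups of 4 mice, 8 of 90 groups tested had a mouse whose gap to its nearest neighbour took more of the group's range than Dixon's critical value at 95%; chance gives about 1 in 20. At the Kcnab2 region with the smallest p, saline 1 was at 89.9% and the other saline mice at 79.7% to 80.7%. In the Kcnk10 region with the higher cocaine mean, cocaine 3 was at 79.0% against 65.9% to 68.0%. Saline 4 was the highest in 2 gene means, Kcnj10 at 25.1% against 21.8% to 22.2% and Kcnc1 at 23.5% against 20.3% to 20.7%. Cocaine 2 was high for Kcnj3, at 14.1% against 12.8% to 13.0%, and cocaine 3 was low for Kcnn2, at 28.7% against 30.1% to 30.2%. For Kcnn3, saline 3 was at 55.5% against 54.6% to 54.7%. In the start window of Kcna7, cocaine 4 was at 12.6% against 8.02% to 8.65%.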

How the results depend on the processing

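The 18 channel regions at a nominal p under 0.05 became 10 of 248 with a coverage minimum of 20 (4.03%, against 5.42% of all regions). They became 34 of 512 with no filter on level (6.64%, against 6.05% of all regions). These settings test fewer and more regions. Leaving out each mouse gave 13 to 22 regions (3.68% to 6.23%, against 4.91% to 6.16% of all regions). Weighting cytosines equally gave 18 (5.10%, against 5.55% of all regions). The 6 genes became 3 to 9 (4.62% to 13.8%, against 5.56% to 11.4% of all genes). The 1 window became 4 of 65 with no filter on level (6.15%, against 6.21% of all windows). The difference over the 65 genes ranged from -1.02 to -0.504 points. No channel region, gene or window was called under any alternative run. The 16 named regions kept their direction in all 227 alternative values, with adjusted p from 0.771 to 0.980. They were picked by their p in these same mice, so a kept direction was largely given by the choice. A further 13 values could not be had, because too few CpGs were left with a coverage minimum of 20 or gaps of 50 bp.

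The correlations of same-numbered deviations were -0.0167, -0.0106, 0.00675 and 0.0767. Those of differently numbered mice lay between -0.139 and 0.0643. So few values near zero cannot settle whether the replicate numbers pair the mice. With the replicate block there were 25 regions at a nominal p under 0.05 (7.08%, against 5.95% of all regions). There were also 6 genes (9.23%, against 7.17% of all genes) and 1 window (4.55%, against 6.23% of all windows). None was called among the channel genes. Depth limits single regions. Summed over cytosines, reads per mouse were 45 to 135 in the Kcnj4 region and 52 to 145 in the Kcnj11 region. At a single cytosine there were 15 to 45 reads at Kcnj4 and 13 to 37 at Kcnj11.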
